A study of Homo sapiens with 2 samples.

Results

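The Notch genes described here are 4 receptors (NOTCH1, NOTCH2, NOTCH3 and NOTCH4), 4 ligands (JAG1, JAG2, DLL1 and DLL4) and 2 targets (HES1 and HES4). They were examined for asymmetric dimethylation of arginine 3 of histone H4 (H4R3me2a) in HCT116, a human line established from a colorectal carcinoma and left without drug here. Chromatin was cross-linked and sonicated, and 1 library immunoprecipitated with an H4R3me2a antibody was set against 1 input DNA library of the same line, which carries no immunoprecipitation. A peak was taken for a gene when its summit, the position of highest signal, lay in the gene body or within 1 kb of any transcription start site (TSS) of the gene in GENCODE release 44 on GRCh38. By this rule 45 peaks of the 33349 on chromosomes 1 to 22 and X (0.135%) belonged to the 10 genes. Receptors held 30, ligands 14 and targets 1. Each library stands alone, so no value has a replicate check and no p-value was computed across peaks or genes. Intervals below are 95% intervals and cover counting error only. Read totals were not used here, and the depth behind a peak is described by its pileup, the number of fragments stacked at the summit.

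Notch signalling passes between neighbouring cells. A Jagged or Delta-like ligand on one cell binds a Notch receptor on the next, ADAM proteases and then the gamma-secretase complex cut the receptor, and the freed intracellular domain enters the nucleus, where it joins the DNA-binding protein RBPJ and a Mastermind coactivator to switch on genes such as HES1. In the gut lining, from which carcinomas of this kind arise, Notch signalling keeps progenitors dividing and favours absorptive over secretory fates. H4R3me2a is placed mainly by the arginine methyltransferase PRMT1 and is generally associated with transcriptionally active chromatin.

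The sequences under 6 of the peaks are shown first, because base composition is what most of them share. They run 5′ to 3′ on the sense strand of each gene, the strand that reads like its RNA, from GRCh38. In the first 5, capitals mark CpG dinucleotides. The NOTCH1 peak of highest pileup (chr9:136530014-136530200, intron 2) is set beside the summit window of the widest member peak, in JAG2 (chr14:105166079-105166378, intron 2). A coding peak in the last exon of NOTCH3 (chr19:15160772-15161015), one in exon 3 of NOTCH4 (chr6:32222632-32222775) and the peak of HES4 (chr1:999100-999378, exon 4) follow.
NOTCH1 intron 2: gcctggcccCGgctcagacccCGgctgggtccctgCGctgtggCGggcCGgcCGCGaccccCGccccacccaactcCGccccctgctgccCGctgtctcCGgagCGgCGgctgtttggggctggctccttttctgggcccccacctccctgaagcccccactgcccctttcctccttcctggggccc
JAG2 intron 2: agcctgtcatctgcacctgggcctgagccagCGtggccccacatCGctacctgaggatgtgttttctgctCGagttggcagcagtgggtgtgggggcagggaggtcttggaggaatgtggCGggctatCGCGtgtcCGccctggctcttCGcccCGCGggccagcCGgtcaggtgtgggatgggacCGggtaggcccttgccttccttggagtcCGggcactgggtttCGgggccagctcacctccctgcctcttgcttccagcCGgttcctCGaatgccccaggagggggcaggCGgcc
NOTCH3 exon 33: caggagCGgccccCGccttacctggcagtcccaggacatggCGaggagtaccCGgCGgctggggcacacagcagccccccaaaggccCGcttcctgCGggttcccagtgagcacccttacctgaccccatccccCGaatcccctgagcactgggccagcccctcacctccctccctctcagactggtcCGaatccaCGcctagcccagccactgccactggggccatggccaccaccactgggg
NOTCH4 exon 3: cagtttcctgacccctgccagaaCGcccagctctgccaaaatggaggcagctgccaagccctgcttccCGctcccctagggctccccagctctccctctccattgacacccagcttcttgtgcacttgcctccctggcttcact
HES4 exon 4: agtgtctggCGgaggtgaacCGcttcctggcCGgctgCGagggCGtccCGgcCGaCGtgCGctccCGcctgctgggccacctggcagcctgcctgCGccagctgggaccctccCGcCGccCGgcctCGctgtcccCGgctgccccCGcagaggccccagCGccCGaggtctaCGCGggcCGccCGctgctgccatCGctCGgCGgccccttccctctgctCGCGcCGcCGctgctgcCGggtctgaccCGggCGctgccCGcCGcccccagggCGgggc

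These stretches differ in CpG content more than in GC content. The HES4 peak held 36 CpGs in 279 bp at 79.9% GC. The NOTCH1 peak held 13 in 187 bp at 75.9% GC. The NOTCH4 peak held 2 in 144 bp, although 61.8% of its bases were G or C. A further NOTCH1 peak in intron 2 (chr9:136528497-136528657) is shown because it carries the 6-base core of the RBPJ motif, TGGGAA or its complement TTCCCA, at 2 places, marked in capitals.
NOTCH1 intron 2, RBPJ core: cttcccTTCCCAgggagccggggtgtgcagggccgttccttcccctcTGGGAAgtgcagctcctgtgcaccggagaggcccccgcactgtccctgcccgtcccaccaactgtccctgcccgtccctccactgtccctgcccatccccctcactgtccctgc

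Of the 10 genes, 7 (70%, 95% exact interval 34.8 to 93.3%) had at least 1 peak, against 47.2% of 19970 protein-coding genes by the same rule, a share inside that interval. NOTCH1 held 20 peaks, JAG2 held 11, NOTCH3 and NOTCH4 held 5 each, DLL1 held 2, and DLL4 and HES4 held 1 each. NOTCH2, JAG1 and HES1 held none. NOTCH1 and JAG2 together carried 31 of the 45 peaks (68.9%). A count of 20 or more was reached by 0.351% of protein-coding genes, a count of 11 or more by 1.58%, and a count of 5 or more by 8.64%. Among the 120 genes of 20 to 100 kb and at least 60% GC, the class of NOTCH1 and JAG2, 14.2% held 20 or more and 43.3% held 11 or more. The counts were thus concentrated in 1 receptor and 1 ligand, and both classes also held a gene with no peak.

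**Figure D1:**
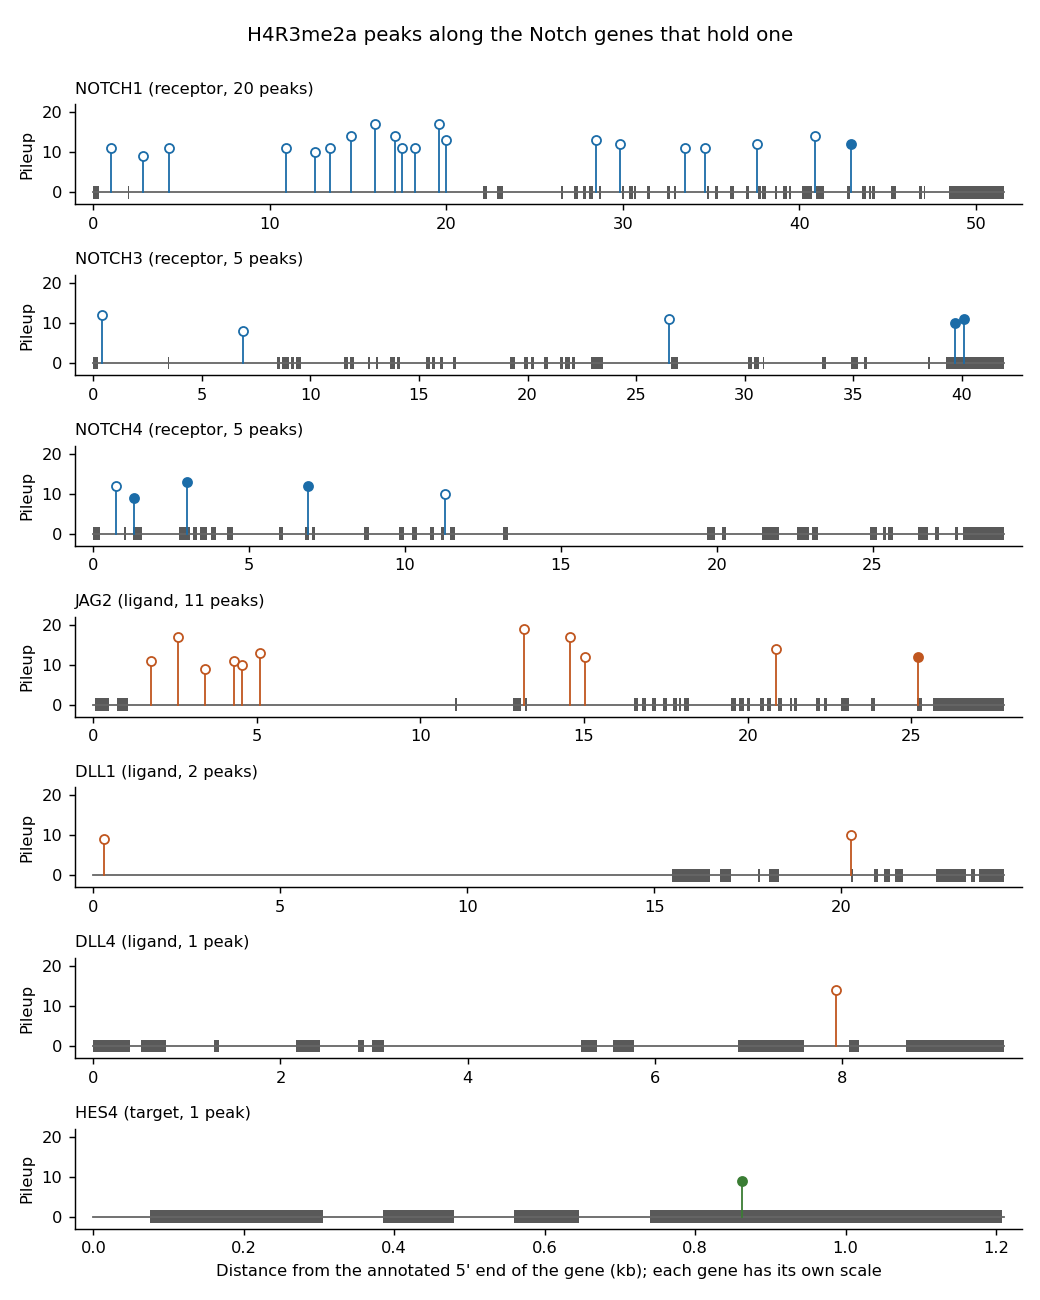
Peaks along the 7 genes that hold at least 1, by distance of the summit from the annotated 5′ end of the gene (kb, x axis, a scale for each gene) and pileup at the summit (fragments, y axis). Grey blocks are exons of the canonical transcript, and points are filled where the summit lies in an exon of any transcript. The 12 peaks of NOTCH1 intron 2 and the 6 of JAG2 intron 2 stand in the long introns near the 5′ ends, and most points are open.

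NOTCH1 codes for the receptor best known for its oncogenic role in T-cell leukaemia and for its role in intestinal progenitors. The gene spans 51.6 kb (chr9:136494433-136546048, minus strand), and its 20 peaks gave 0.387 peaks per kb and covered 10.4% of it. Intron 2, 20 kb long and 38.8% of the gene, held 12 peaks or 0.599 per kb, and the remaining 31.6 kb held 8, or 0.253 per kb. The densest 10 kb, from 10.9 to 20 kb after the 5′ end, held 10 summits. The other peaks lay in introns 1, 8, 9, 15 (2 peaks), 19, 25 and 27 of the canonical transcript. No summit fell in a canonical exon, and 1, in intron 27, lay in an exon of another transcript. The long second intron was therefore the part of NOTCH1 with most of the peaks.

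The pileup ran from 9 to 17 over the 20 NOTCH1 peaks with a median of 11.5. The highest, 17 fragments, was reached at chr9:136530014-136530200, with an enrichment of 5.9-fold in the authors' deposited table, and at chr9:136526362-136526535, with 4.92-fold. This fold is the pileup plus 1 over the local background plus 1, so the background under a peak can be recovered from it. A pileup of 14 followed at 3 peaks, with folds of 5.46 (chr9:136528800-136529113), 5.35 (chr9:136531341-136531649) and 3.68 (chr9:136505097-136505349). The first 4 of these 5 lay in intron 2, so the tallest peaks stood where peaks were also most crowded. The widest NOTCH1 peaks were 598 bp (chr9:136545000-136545597, intron 1, pileup 11), 571 bp (chr9:136542962-136543532, intron 2, pileup 9) and 398 bp (chr9:136516148-136516545, intron 9, pileup 12). The 2 widest were the 2 nearest the 5′ end, at 1.03 and 2.82 kb from it, and their pileups were below the median of the gene. The 571-bp peak also lay in an annotated long non-coding RNA gene or near its TSS.

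NOTCH3, a receptor prominent in vascular smooth muscle, spans 42 kb (chr19:15159038-15200995, minus strand) and held 5 peaks, or 0.119 per kb. The first, 0.377 kb after the 5′ end in intron 1, was 165 bp wide with a pileup of 12 and the gene's highest fold, 5.61 (chr19:15200527-15200691). In intron 2 a peak of 295 bp had a pileup of 8 and a fold of 4 (chr19:15194097-15194391). In intron 24 a peak of 327 bp had a pileup of 11 and a fold of 4.73 (chr19:15174365-15174691). The last 2 lay entirely in exon 33, the final exon, which codes for the C-terminal part of the intracellular domain. They were 307 bp wide with a pileup of 10 (chr19:15161273-15161579) and 244 bp wide with a pileup of 11 (chr19:15160772-15161015), at folds of 4.1 and 3.99. NOTCH3 thus carried 3 of its 5 peaks in the first and last few kb. Of the 32-base words of NOTCH3, 17% occurred more than once on the assembled chromosomes, and 1 of the 5 summits lay in a word found at 2 places.

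NOTCH4, a receptor known from endothelium, spans 29.2 kb (chr6:32194843-32224067, minus strand) and also held 5 peaks, or 0.171 per kb. All 5 lay in the first 11.3 kb. Coding exons held 3 summits, in exons 3, 4 and 10, which code for EGF-like repeats of the extracellular part. These 3 peaks were 144 bp wide with a pileup of 9 (chr6:32222632-32222775), 362 bp with a pileup of 13 (chr6:32220782-32221143) and 131 bp with a pileup of 12 (chr6:32217156-32217286), at folds of 3.28, 4.76 and 4.14. The other 2 lay in intron 1 (chr6:32223124-32223371, 248 bp, pileup 12, fold 3.9) and in intron 16 (chr6:32212722-32212861, 140 bp, pileup 10, fold 5.05). NOTCH4 was the receptor with the most summits in exons.

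NOTCH2, the largest of the 10 genes at 189 kb (chr1:119911553-120100779, minus strand), held no peak. A count of 0 allows up to 3, or 0.0159 per kb. The nearest peak lay 75.4 kb before the annotated 5′ end, at SEC22B. Part of NOTCH2 was copied elsewhere in the human genome during the origin of the NOTCH2NL genes. Of its 32-base words, 56% occurred more than once, against 0.976 to 17% in the other 9 genes with the exception of HES1 and HES4, where none did. The treatment of reads that match several places is not stated in the labels, and its part in the empty NOTCH2 was not tested. The words found once still covered 83.3 kb of the gene.

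Among the ligands, JAG2 was as dense as NOTCH1. It spans 27.8 kb (chr14:105140982-105168824, minus strand), and its 11 peaks gave 0.395 per kb and covered 13.8% of the gene. Intron 2, 9.99 kb long, held 6, or 0.6 per kb, and the remaining 17.9 kb held 5, or 0.28 per kb. Their summits stood 1.78, 2.6, 3.4, 4.29, 4.56 and 5.09 kb after the 5′ end. The second of them had the greatest width and the highest fold of all 45 peaks, 979 bp and 7.42, from 17 fragments over a background of 1.43 (chr14:105165687-105166665). Its −log10 q, the caller's significance after adjustment over all tested positions, was also the highest of the 45, at 7.71. The 5 around it were narrower. They measured 133 bp with 11 fragments (chr14:105166946-105167078), 314 bp with 9 (chr14:105165135-105165448), 236 bp with 11 (chr14:105164482-105164717), 155 bp with 10 (chr14:105164187-105164341) and 279 bp with 13 (chr14:105163681-105163959).

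Beyond intron 2 the 5 other JAG2 peaks had 12 to 19 fragments and folds of 2.94 to 4.17, whereas the 6 of intron 2 had 9 to 17 fragments and folds of 3.94 to 7.42. The highest pileup of the 45 peaks, 19 fragments, stood in intron 4 (chr14:105155405-105155748, 344 bp), where the background was 4.1 fragments and the fold 3.92. Intron 5 held a peak of 17 fragments (chr14:105154055-105154376, 322 bp) over a background of 5.12, with a fold of 2.94, and one of 12 fragments (chr14:105153565-105153805, 241 bp) with a fold of 3.38. A peak in intron 17 (chr14:105147935-105148326, 392 bp, 14 fragments, fold 4.17) lay 423 bp from an internal TSS, and one in exon 25 (chr14:105143433-105143891, 459 bp, 12 fragments, fold 3.83) was the only JAG2 summit in coding sequence. Pileup and fold therefore ordered the JAG2 peaks differently. The first 9 JAG2 peaks also lay in an annotated long non-coding RNA gene or near its TSS.

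JAG1, the other Jagged ligand, held no peak over its 36.3 kb (chr20:10637684-10673999, minus strand), which allows up to 0.0826 per kb. The nearest peak on the chromosome lay 1131 kb beyond its 3′ end. The Jagged genes thus differed, with 11 peaks in JAG2 and 0 in JAG1, and 99% of the 32-base words of JAG1 were single-copy.

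The Delta-like ligands held few peaks. In DLL1 (chr6:170282206-170306565, minus strand) a peak of 142 bp with 9 fragments and a fold of 4.76 (chr6:170306230-170306371) lay 279 bp from the start of a long transcript and also at the gene FAM120B. The canonical DLL1 transcript starts 15.5 kb farther on, so this peak lay outside it. The second DLL1 peak, 152 bp with 10 fragments and a fold of 4.11 (chr6:170286272-170286423), was in intron 4. DLL4, a ligand of sprouting endothelium, held 1 peak over 9.73 kb (chr15:40929340-40939073, plus strand), in intron 9 (chr15:40937164-40937426, 263 bp, 14 fragments). With a background of 4.1 its fold was 2.94. Just outside the 1-kb window, 1118 bp before the 5′ end of DLL4, stood a peak of 249 bp with 10 fragments (fold 4.8), and 3 others followed at 2395, 2948 and 3831 bp.

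The edge of the window also mattered at JAG2 and NOTCH1. The nearest peak before the 5′ end of JAG2 lay 1121 bp away (246 bp wide, 11 fragments, fold 4.73), and 8 lay in the 10 kb before that end, 5 of them at the neighbouring gene NUDT14. Before NOTCH1 the nearest lay 1638 bp away (176 bp wide, 9 fragments, fold 4.6), and 3 lay within 10 kb. Just inside the window stood the NOTCH1 peak of intron 1, whose summit was 976 bp from a TSS. NOTCH2, NOTCH3, JAG1, DLL1 and HES1 had no peak outside the gene within 10 kb of either end.

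Of the targets, both of which code for basic helix-loop-helix repressors, HES4 held 1 peak and HES1 held none. The HES4 gene is 1.21 kb long (chr1:998962-1000172, minus strand). Its peak (chr1:999100-999378) was 279 bp wide, with 9 fragments, a fold of 4.22 and a background of 1.37. It lay entirely in exon 4, the last, with its summit in coding sequence, 672 bp from the nearest TSS and 0.863 kb after the 5′ end. HES1, the classical Notch target, is 2.58 kb long (chr3:194136148-194138732, plus strand). The nearest peak lay 42.8 kb before its 5′ end, with 8 fragments and a fold of 4.45. In so short a gene a count of 0 allows up to 3 peaks, or 1.16 per kb, so the empty HES1 does not set it apart from HES4.

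The promoters of both HES genes carried the RBPJ core in the RefSeq sequence (GRCh38.p14) of 250 bases before to 50 after the start, and those of the other 7 matched genes did not. DLL1 was not matched. The letters TGGGAA on either strand stood in 24% of 35116 such promoters. In HES1 they began 84 and 70 bases before the start, and in HES4 76 bases before it. A run of 12 bases around the core was the same in both genes. They are shown here in 30 bases each, with the core in capitals (HES1 chr3:194136059-194136088, HES4 chr1:1000149-1000178), because the HES1 promoter is a classical place of RBPJ binding. The 2 HES1 cores stand on the same strand, and whether either is bound was not tested. No peak summit lay in either promoter window.
HES1 promoter: tactgTGGGAAagaaagttTGGGAAgtttc
HES4 promoter: gagtgTGGGAAagaatgcggagccgggttc

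Within the 45 peaks the same core, on either strand, was about as frequent as in the whole list. It stood in the 300 bp around the summit of 12 member peaks (26.7%), against 27.2% of all peaks. The longer form CGTGGGAA stood in 0 of 45, which allows up to 6.67%, against 0.801% of all peaks. A match of letters describes the sequence and not a bound site.

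The position of the summits was mostly intronic. Of the 45 summits, 37 lay in introns of the canonical transcript, 7 in its coding sequence and 0 in its UTRs, and 1, in DLL1, lay outside it. Counting exons of any transcript, 8 (17.8%, exact interval 8 to 32.1%) were exonic. All peaks of protein-coding genes had 29.7% exonic summits by the same rule, and exons made up 25.7% of the length of the 7 genes with a peak. Both values lie inside the interval, so a shortage of exonic summits was not detectable with 45 peaks. By class, 6 of 30 receptor peaks (20%, 7.71 to 38.6%), 1 of 14 ligand peaks (7.14%, 0.181 to 33.9%) and the 1 target peak were exonic, and these intervals overlap.

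Single genes had wide intervals. NOTCH1 had 1 exonic summit of 20 (5%, 0.127 to 24.9%), with exons over 24.3% of its length, and JAG2 had 1 of 11 (9.09%, 0.23 to 41.3%). NOTCH3 had 2 of 5 (40%, 5.27 to 85.3%) and NOTCH4 had 3 of 5 (60%, 14.7 to 94.7%). The interval of NOTCH1 includes the exonic share of its length only near its upper end, and it lies below the 29.7% of all peaks of protein-coding genes. NOTCH1 is 1 gene of several, and its peaks are not replicates of one another. Any base of an exon was touched by 17 of the 45 peaks (37.8%), since some intronic peaks reached into a neighbouring exon. No share of all peaks that touch an exon was set beside this value. At least 1 exonic summit was found in 24.3% of protein-coding genes and in 5 members, NOTCH1, NOTCH3, NOTCH4, JAG2 and HES4.

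A summit within 1 kb of a TSS was found in 6 of the 10 genes (60%, 26.2 to 87.8%), against 31.6% of protein-coding genes, a share inside that interval. Of the 45 peaks, 9 had such a summit, and no share of all peaks was set beside this count. NOTCH1 had 4, at 976, 318, 63 and 292 bp from a TSS in order from the 5′ end, and the last 3 of these TSSs are internal. NOTCH3 had its peak 284 bp, NOTCH4 722 bp, JAG2 423 bp, DLL1 279 bp and HES4 672 bp from the nearest TSS. Those of NOTCH3, NOTCH4, DLL1 and HES4 lay within 1 kb of the annotated 5′ end of the gene. None of the 10 summits in the densest part of NOTCH1 lay in such a window.

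**Figure D2:**
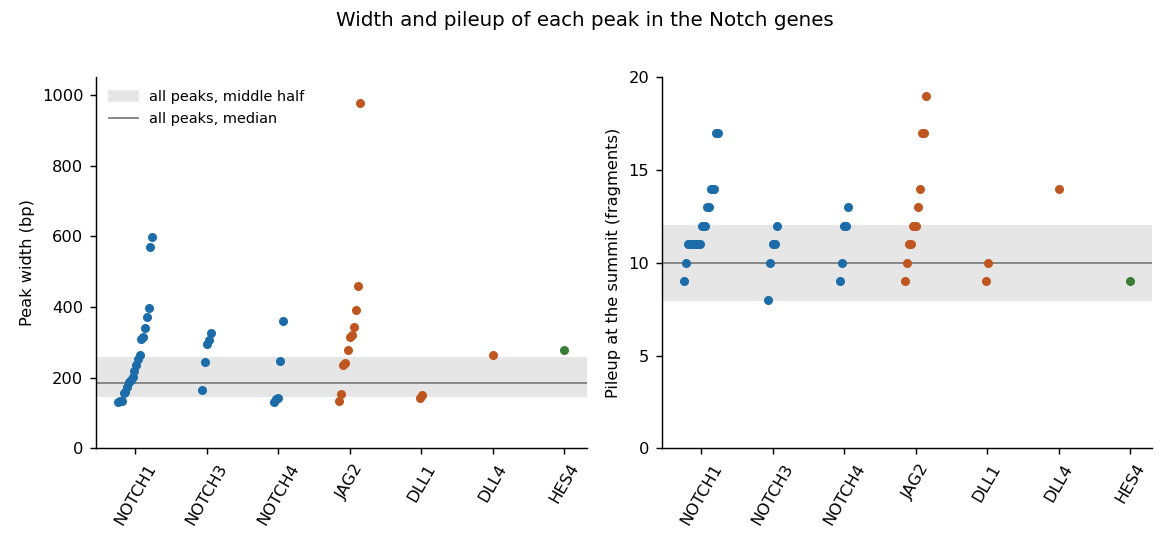
Width (bp, left) and pileup at the summit (fragments, right) of each member peak, 1 point a peak, by gene. The line is the median of all 33349 peaks and the band spans their quartiles. Blue points are receptors, orange ligands and green the target. JAG2 holds the widest peak, 979 bp, and the highest pileup, 19 fragments.

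The member peaks had a median width of 248 bp (quartiles 161 and 322, interval of the median 195 to 307), against 185 bp for all peaks (184 to 186). A width of 300 bp or more was reached by 16 of 45 (35.6%), against 16.8% of all peaks. Receptor peaks had a median of 240 bp (range 131 to 598), ligand peaks 271 bp (133 to 979) and the target peak 279 bp. Without NOTCH1 the median was 263 bp (165 to 314) and without JAG2 240 bp (165 to 295), and both of these intervals include 185 bp. With either gene left out, a difference in width was no longer detectable.

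The pileup differed little. Its median was 11 fragments (interval 11 to 12) in member peaks, against 10 in all peaks. Receptor peaks had a median of 11 (range 8 to 17), ligand peaks 12 (9 to 19) and the target peak 9. The local background under the member peaks was also higher, with a median of 2.01 fragments (1.75 to 2.33), against 1.54 in all peaks. Among the 11555 peaks of the list whose background lay between the quartiles of the member peaks, 1.54 and 2.56, the median pileup was 11 and the median width 195 bp (quartiles 153 and 273). The part of the background in the width of the member peaks was not tested further. The median fold of the member peaks, 4.11 (3.94 to 4.35), did not differ from the 4.18 of all peaks beyond its interval. Only 2 member peaks had a −log10 q of at least 5 (4.44%), against 3.84% of all peaks. These 2 were the NOTCH1 peak of highest pileup and the widest JAG2 peak.

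**Figure D3:**
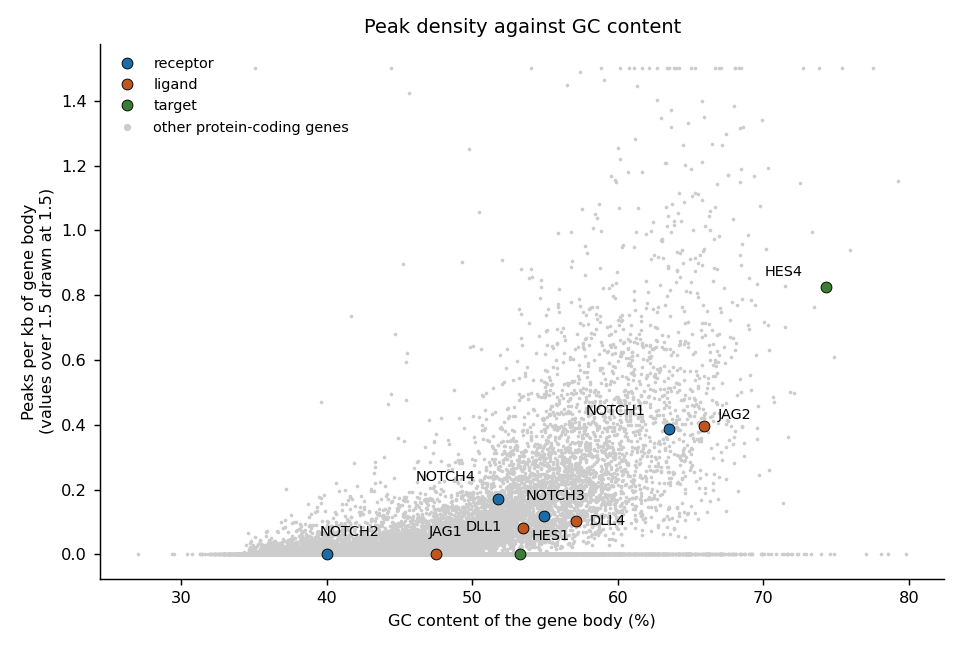
Peaks per kb of gene body (y axis, values over 1.5 drawn at 1.5) against GC content of the gene body (%, x axis) for the 10 Notch genes, coloured by role, and the other protein-coding genes (grey). NOTCH1, JAG2 and HES4 lie above 60% GC and have the 3 highest densities of the 10 genes, and NOTCH2 and JAG1 lie below 50% with none.

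Peak density was highest in the 3 Notch genes richest in GC. NOTCH1 (63.5% GC), JAG2 (65.9%) and HES4 (74.3%) had 0.387, 0.395 and 0.826 peaks per kb. The value of HES4 comes from 1 peak in a very short gene. NOTCH3 (54.9%), NOTCH4 (51.8%), DLL1 (53.5%) and DLL4 (57.1%) had 0.119, 0.171, 0.0821 and 0.103. NOTCH2 (40%) and JAG1 (47.5%) had none, and neither had HES1 (53.3%). Over all protein-coding genes the summed density was 0.00244 per kb in genes of under 40% GC, 0.027 between 45 and 50%, 0.0843 between 50 and 55%, 0.176 between 55 and 60%, and 0.347 from 60% upward. The densities of NOTCH1 and JAG2 stood near that of their class. Genes share this peak list, so the relation across genes is a description.

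Counts were also set beside genes of like length (within a factor of 2) and GC content (within 2 percentage points). NOTCH1 had 20 peaks, against a median of 10.5 (quartiles 6.75 and 18.2) in 48 such genes, NOTCH1 included, and 10 others had as many. JAG2 had 11, against a median of 7 (5 and 11) in 35 genes. NOTCH3 had 5, against 5 (2 and 7) in 584 genes, and NOTCH4 had 5, against 2 (1 and 4) in 1129. DLL1 had 2 against a median of 2, and DLL4 had 1 against 2. Of genes like NOTCH2, 44.9% had at least 1 peak, of those like JAG1 62.7% and of those like HES1 32.1%. Among these neighbours NOTCH1 and NOTCH4 lay above the upper quartile, and an empty gene was common.

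**Figure D4:**
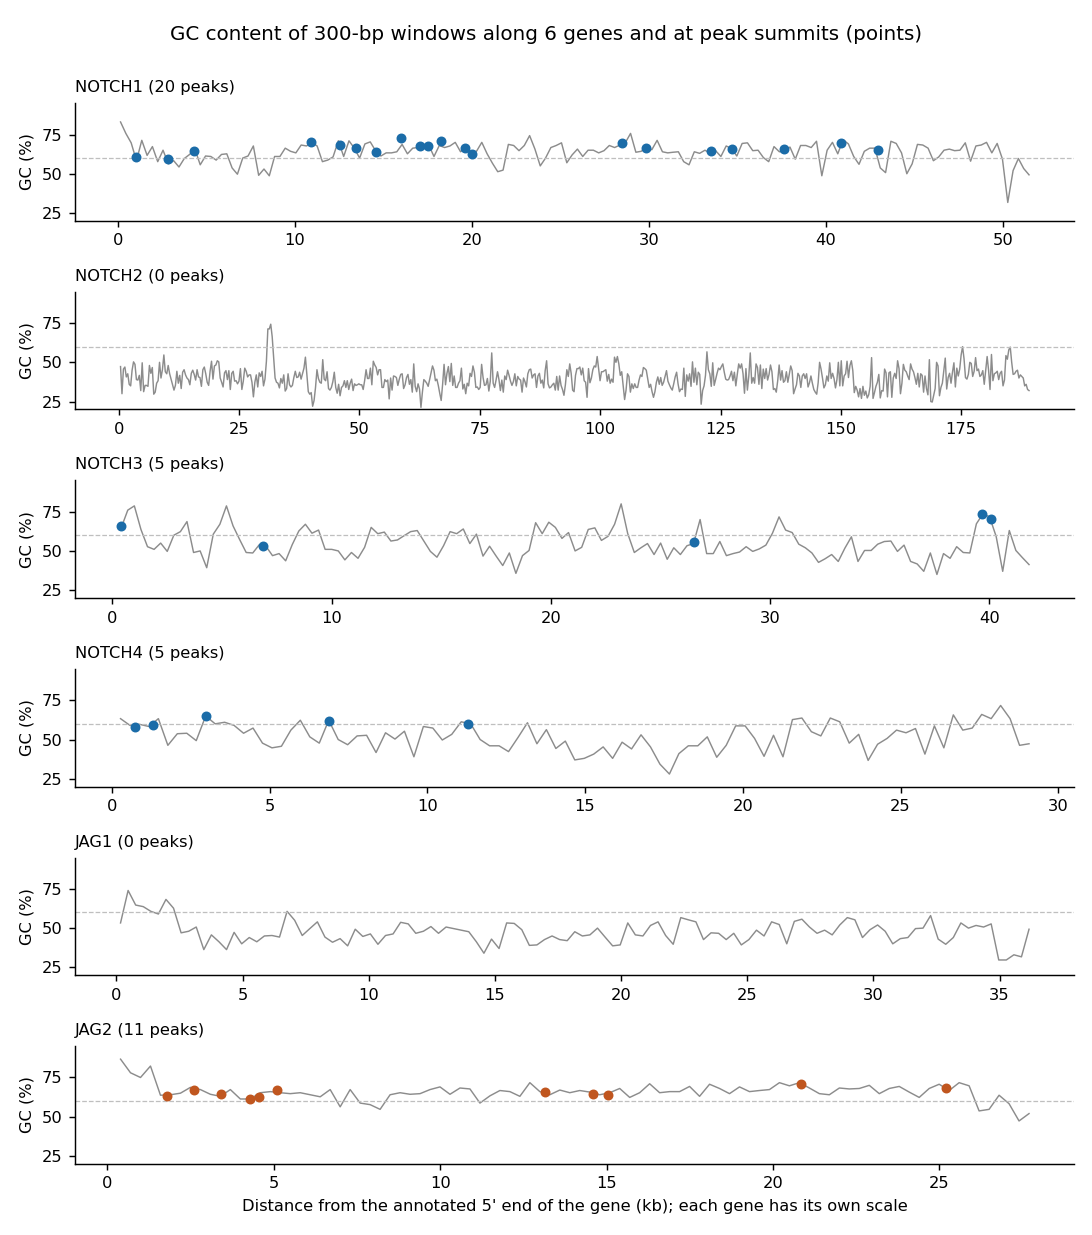
For 6 of the genes, GC content (%, y axis) of consecutive 300-bp windows (line) by distance from the annotated 5′ end (kb, x axis, a scale for each gene), with the GC content of the 300 bp around each summit (points). The dashed line marks 60%. NOTCH1 and JAG2 lie mostly above it, with 77.9% and 89.1% of windows at 60% GC or more, and NOTCH2 and JAG1 mostly below, with 0.794% and 5.79%.

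The 300 bp around the summit had a median GC content of 65.7% in member peaks (quartiles 62.3 and 68), against 60% in all peaks (55 and 64.7). Of the 45, 38 reached 60%, the median of all peaks. In NOTCH4, where 19.6% of windows reached 60% GC, all 5 summits lay above the median window of the gene, 52.3%, at 58 to 65.3%. In NOTCH3 all 5 also lay above its median window of 53%, the lowest only just, at 53.3%. In NOTCH1, 15 of 20 lay above the median window of 64.3%, and in JAG2 4 of 11 lay above 65.8%. Summits in NOTCH4 thus lay above the typical GC content of the gene, and those in JAG2, which is GC-rich throughout, mostly did not. The same comparison was not made for other genes, so these counts are not shown to be particular to the Notch genes. All protein-coding genes had a median GC content of 45.3%, below the 60% around all summits. Some GC-rich stretches held no peak. In JAG1 7 of 121 windows reached 60% GC, in NOTCH2 5 of 630, and in HES1 5 of 8.

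CpG content varied more widely than GC content among the peaks. The ratio of observed to expected CpGs around the summit had a median of 0.365 in member peaks, against 0.296 in all peaks. It was highest at HES4 (0.892, 38 CpGs), at the first DLL1 peak (0.863, 34 CpGs) and at the NOTCH1 peak of intron 1 (0.742, 20 CpGs), which all lay within 1 kb of a TSS. It was lowest in JAG2 intron 2, at 0.0709 with 2 CpGs (chr14:105164482-105164717). The 9 peaks near a TSS had a median of 0.509. Both CpG-rich and CpG-poor stretches therefore held peaks.

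**Figure D5:**
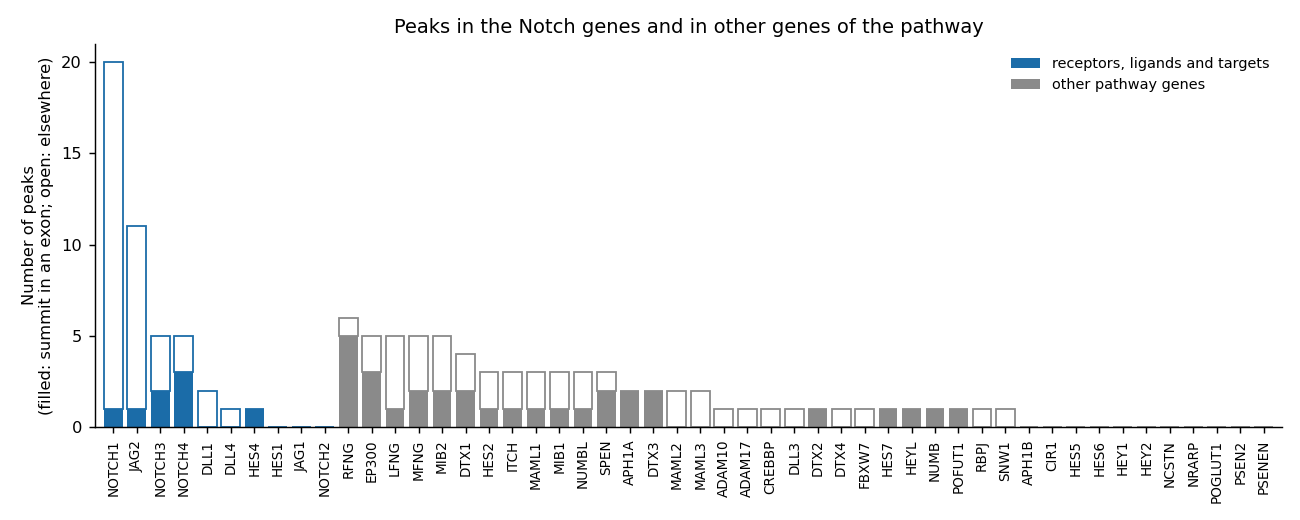
Number of peaks (y axis) in the 10 receptors, ligands and targets and in other genes of the Notch pathway (x axis). The filled part of a bar counts summits in an exon and the open part all others. Outside NOTCH1, with 20, and JAG2, with 11, no gene holds more than 6.

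The rest of the pathway was described with a list of 41 other genes. Of these, 30 (73.2%, 57.1 to 85.8%) had at least 1 peak by the same rule, and 21 (51.2%, 35.1 to 67.1%) had one within 1 kb of a TSS. The shares of all protein-coding genes are the 47.2% and 31.6% given above, and both lie below these intervals. The listed genes had a median GC content of 47.6% and a median length of 33.1 kb, against 45.3% and 27.5 kb in all protein-coding genes. Of the 1593 protein-coding genes of 20 to 100 kb and 45 to 50% GC, the class of these medians, 65.3% had at least 1 peak. That share lies inside the interval of 57.1 to 85.8%. For peaks within 1 kb of a TSS no class of like length and GC content was counted, so the part of these 2 traits in that difference was not tested. Summits in exons made up 8 of 45 (17.8%) in the receptors, ligands and targets, against 34 of 73 (46.6%) in the listed genes and 27.8% over all protein-coding genes, with peaks counted gene by gene. The median number of peaks per gene was 1.5 in the receptors, ligands and targets, against 1 in the listed genes and 0 in all protein-coding genes.

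The Fringe genes, whose products add sugars to the EGF-like repeats of Notch and shift its choice of ligand, all held several. RFNG held 6 peaks in 3.93 kb, the highest density of the list at 1.53 per kb, with 5 summits in exons and a median pileup of 18.5. The highest fold of RFNG was 4.47. LFNG and MFNG held 5 each. RFNG and LFNG have 67.1 and 62.8% GC, in the class from 60% upward, where the summed density over all protein-coding genes was highest, at 0.347 per kb. MFNG has 56.7%, in the class of 55 to 60%, where it was 0.176. LFNG had 0.3 and MFNG 0.289 peaks per kb, and the 1.53 of RFNG was above the 90th percentile of its class, 0.842. MIB2, a ubiquitin ligase that acts on the ligands, and EP300, an acetyltransferase recruited as a coactivator, also held 5, at 66.4 and 42% GC. DTX1, a cytoplasmic regulator of Notch, held 4. NUMBL, MAML1, MIB1, ITCH, SPEN and HES2 held 3 each.

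Of the genes of the nuclear complex, RBPJ had 1 peak in 272 kb, MAML1 had 3 in 44.5 kb, MAML2 had 2 in 367 kb and MAML3 had 2 in 437 kb. MAML1 has 47.6% GC, and the other 3 have 40.1 to 41.6%. Of the 7 other HES and HEY genes, which code for related repressors, 3 had a peak. HES2 had 3, with a highest fold of 6.56, HES7 had 1 (fold 4.28) and HEYL had 1 (fold 2.67, 14 fragments). HES5, HES6, HEY1 and HEY2 had none, and neither had NRARP, a feedback target. HES5 and HES6 are GC-rich, at 68.5 and 70.1%, and short, at 1.52 and 2.4 kb. Of all protein-coding genes under 20 kb, 40.7% held a peak.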

How the data were processed

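One H4R3me2a library and 1 input library of untreated HCT116 cells were used, with no replicates. The submitters' processing notes name Bowtie2, MACS2, deepTools and GRCh38, with no version, parameter or read filter stated. Per the file headers, each row of the deposited peak table holds a pileup signal at the summit, a fold enrichment ratio over local background, and −log10 p and q. The authors' deposited interval list repeats these with a score, which was not used further. These values belong to single peaks, as the authors' caller gave them, and served only to describe, rank or filter peaks.

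Summits were assigned to genes of GENCODE release 44 with Python 3.11.15 and pandas 2.3.3, and the assignment was checked on simulated peaks. Canonical exon numbers follow the canonical transcript. GC content and CpG were read from GRCh38 in 300 bp around each summit. The CpG ratio is observed over expected from base composition. Intervals of shares are exact binomial (Clopper-Pearson, scipy 1.17.1), and those of medians come from order statistics. A count of 0 was given a limit of 3. Copies of 32-base words were counted on both strands of the assembled chromosomes. Promoter sequences are from RefSeq (GRCh38.p14).

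The genes, the pathway list and the alternatives were chosen with earlier results of these data known. Named were the 10 genes, the 6 pathway genes with most peaks and ties, every HES and HEY gene, and any gene sharing a member's peak. Pathway genes with 3 peaks or a nuclear or feedback role, and the neighbours SEC22B and NUDT14, were named after their values were seen, to show the range. One gene of the list is counted in its totals and not reported here by itself. Alternatives were stricter peak thresholds, merging of near peaks, other windows and overlaps, and canonical transcripts only.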

Additional observations from a re-analysis of the deposited data

How the results depend on the processing

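Of 70 recomputed values, 47 stayed within their limit and 23 moved. The limit was 1.5 times for counts and densities, and the 95% interval of the main value for the exonic share and the medians. The exonic share, 17.8% as reported, was 8.33% with the 50% of peaks of higher −log10 q, near the lower end of its interval. With only peaks of −log10 q of 5 or more, 2 member peaks were left in 2 genes, 1 receptor and 1 ligand peak and 0 target peaks, with an exonic share of 0%, a median width of 583 bp, a median pileup of 17 and 0.0194 NOTCH1 peaks per kb. With peaks of fold 4 or more, 26 were left, 17 in receptors and 8 in ligands, and NOTCH1 had 0.213 per kb. With the 50% of peaks of higher −log10 q, 24 were left, 17 in receptors, 7 in ligands and 0 in targets, with a median pileup of 12.5 and 0.213 NOTCH1 peaks per kb. With peaks less than 1 kb apart merged, 29 were left, 8 in ligands, with a median width of 344 bp and 0.232 NOTCH1 peaks per kb. Each of these settings leaves fewer peaks by its construction. No paired analysis was possible because there is 1 library of each kind. With 1 library and pileups of 8 to 19 fragments, a gene with no peak may hold a signal below the caller's threshold.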
